A study of Mus musculus with 24 samples.

Results

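The barcodes described here were found in B cells and in monocytes or neutrophils of a mouse, while their level in T cells lay under the limit taken as presence. They were chosen per mouse from shares, a share being a barcode's reads as a percentage of all reads of a sample. A member had at least 0.01% in B cells, at least 0.01% in monocytes or neutrophils, at least 0.1% in 1 or more of the 8 populations sorted from that mouse, and less than 0.01% in T cells. These were 169 barcodes, 69 in mouse 1, 41 in mouse 2 and 59 in mouse 3, of 1064 that reached 0.1% in any population of their mouse and of 327974 distinct sequences in all samples. No sequence was a member in more than 1 mouse, so the 169 members are 169 different sequences.

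Each barcode is a synthetic DNA stretch of 52 bases that the lentivirus pBC008 had inserted into the genome of a cultured haematopoietic stem cell of a C57BL/6J mouse. Infection took place 5 days after plating, and GFP+LinSca1+cKit+ (LSK) cells were sorted after 4 more days. Male CD45.2 recipients, 5 weeks old, were irradiated with 9 Gy and received 20000 GFP+ LSK cells and 100000 CD45.2+ LincKit+Sca1- rescue cells, treatment that all groups shared. After 2 months 8 populations were obtained from each of 3 mice, namely monocytes, neutrophils, B cells and T cells of the blood, Ccr2hi and Ccr2lo macrophages of the heart, and M1 and M2 macrophages of the kidney, which gave 24 samples with 1 sample per population and mouse. Numbers of sorted cells and the markers of the macrophage gates are not given in the labels, and DNA barcodes carry no expression by which the sorted cell types could be checked. Rescue and host cells carry no barcode and give no reads.

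Haematopoietic stem cells give rise to all blood lineages through progenitors of narrowing potential. Monocytes and neutrophils are short-lived myeloid cells that the bone marrow renews constantly, whereas B cells mature in the marrow and T cells only after progenitors have seeded the thymus. Tissue macrophages descend in part from embryonic precursors and in part from blood monocytes, for whose exit from the marrow the chemokine receptor Ccr2 is needed. A barcode shared by several populations marks descent from the same infected cell or its daughters.

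Samples held 6808221 to 15745444 reads, so that the presence limit of 0.01% corresponded to 681 to 1575 reads. The 95% Wilson interval at that limit reached from 0.00928% to 0.0108% in the shallowest sample, the neutrophils of mouse 1. No molecular identifiers were used in the PCR, and intervals cover counting error only. A share counts amplified barcode copies, and fewer cells cannot be told apart from fewer copies recovered per cell.

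Members named below were set by rank within a mouse and are called MyB with the number of the mouse and a letter. They are written 5′ to 3′ as deposited, in lower case, with a base in capitals where it breaks the alternation of G or C with A or T that the barcodes follow. The first set shows the members with the highest mean share over B cells, monocytes and neutrophils of each mouse, 3 per mouse, since they had the highest blood levels among members.
MyB-1a: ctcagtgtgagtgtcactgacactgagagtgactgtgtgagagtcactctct
MyB-1b: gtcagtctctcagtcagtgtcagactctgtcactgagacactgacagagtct
MyB-1c: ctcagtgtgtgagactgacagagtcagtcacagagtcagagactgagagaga
MyB-2a: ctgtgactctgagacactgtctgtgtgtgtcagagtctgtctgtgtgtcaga
MyB-2b: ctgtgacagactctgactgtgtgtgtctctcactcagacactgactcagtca
MyB-2c: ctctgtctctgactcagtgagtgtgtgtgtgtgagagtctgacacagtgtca
MyB-3a: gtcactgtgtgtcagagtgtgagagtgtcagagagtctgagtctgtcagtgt
MyB-3b: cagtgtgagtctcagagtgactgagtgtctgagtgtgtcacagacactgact
MyB-3c: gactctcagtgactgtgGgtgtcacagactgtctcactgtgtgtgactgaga
The second set holds the most B-rich and most myeloid-rich members not shown yet, and the member of mouse 3 with the highest share in any macrophage population.
MyB-1d: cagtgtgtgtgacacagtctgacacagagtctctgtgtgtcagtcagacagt
MyB-1e: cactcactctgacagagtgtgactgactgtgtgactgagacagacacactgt
MyB-2d: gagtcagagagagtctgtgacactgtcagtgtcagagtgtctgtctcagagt
MyB-3d: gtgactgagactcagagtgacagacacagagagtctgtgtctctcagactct
MyB-3e: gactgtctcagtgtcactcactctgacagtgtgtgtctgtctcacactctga
The third set lies at the T cell limit: for each mouse the member with the most T cell reads and, called MyBT, the barcode that failed only by having the lowest T cell share above the limit.
MyB-1f: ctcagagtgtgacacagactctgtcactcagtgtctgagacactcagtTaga
MyBT-1: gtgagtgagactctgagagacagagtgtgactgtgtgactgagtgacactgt
MyB-2e: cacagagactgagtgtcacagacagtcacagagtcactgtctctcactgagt
MyBT-2: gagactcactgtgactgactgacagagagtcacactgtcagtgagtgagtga
MyB-3f: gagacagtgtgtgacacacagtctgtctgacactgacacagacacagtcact
MyBT-3: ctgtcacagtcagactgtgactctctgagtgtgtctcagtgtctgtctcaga

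As sequences the members were unrelated to one another. Any pair of members of a mouse differed at 13 or more of the 52 bases, with a median of 26 in each mouse. Within 2 mismatches of a member no barcode of its mouse was 10-fold more abundant, and 1 member, of mouse 1, lay 1 mismatch from another barcode present there at 0.0348% or less. The alternating pattern was kept by 156 of the 169 members (92.3%), against 90.6% of the 1064 barcodes. In the other 13 members 14 bases broke it, of which 13 were a T at a place for G or C, as in MyB-1f, and 1 was a G at a place for A or T, in MyB-3c. GC content averaged 49.7% to 49.9% in the 3 mice, a value that the pattern fixes.

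In T cells the members were low, but none was at 0. Their T cell reads ranged from 6 to 1168 with a median of 206. T cell shares were under 0.001% in 60 members, from 0.001% to under 0.005% in 76, and from 0.005% to under 0.01% in 33. The lowest shares were frequent in mouse 3, where 32 of 59 members lay under 0.001%, against 18 of 69 in mouse 1 and 10 of 41 in mouse 2. The name "lacking T cells" is therefore a limit on the level and not an absence of reads. Trace reads also occurred in samples of other mice, at up to 0.000313% for MyB-3d and 0.00218% for MyB-3e. Their T cell shares, 0.000284% and 0.00114%, lay under that. For MyB-1a, at 0.00891% in T cells, the highest share in another mouse was 0.000955%. Whether the lowest shares come from cells of the sample was not tested. The limit divided neighbours: in mouse 1 MyB-1f had 0.00974% of T cell reads and MyBT-1 0.0106%, in mouse 2 MyB-2e had 0.00728% and MyBT-2 0.0108%, and in mouse 3 MyB-3f had 0.00921% and MyBT-3 0.0110%. Of the 3 members per mouse most abundant in blood, some lay close under the limit and others well below it. T cell shares were 0.00891% for MyB-1a, 0.00913% for MyB-1b and 0.00531% for MyB-1c. They were 0.00235% for MyB-2a, 0.00365% for MyB-2b and 0.00652% for MyB-2c, and 0.00896%, 0.00899% and 0.00919% for MyB-3a, MyB-3b and MyB-3c. MyBT-1 resembled the leading members of its mouse, with 1.04% of monocyte, 1.30% of neutrophil and 0.0147% of B cell reads.

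The other limits of the rule separated members from barcodes just outside as follows. The lowest B cell share of a member was 0.0138%, 0.0145% and 0.0106% in mice 1, 2 and 3, and the highest just outside were 0.00941%, 0.00809% and 0.00663%. The higher of the monocyte and neutrophil shares was at least 0.01009%, 0.01006% and 0.01002% in members, and at most 0.00983%, 0.00956% and 0.00952% in barcodes that failed only there. The highest share in any population was at least 0.1003%, 0.1007% and 0.1013% in members, and 43 barcodes, 29, 5 and 9 in the 3 mice, failed only by staying under 0.1%.

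Members were rarer among the barcodes most abundant in the rest of the blood. Of the 428 barcodes with B cells and myeloid cells, 39.5% were members, 38.1% in mouse 1, 31.8% in mouse 2 and 50.0% in mouse 3. By mean share over B cells, monocytes and neutrophils, members made up 43 of 96 barcodes under 0.05%, 39 of 84 from 0.05% to 0.1%, 50 of 88 from 0.1% to 0.2% and 32 of 73 from 0.2% to 0.5%. They were 5 of 28 barcodes from 0.5% to 1% and 0 of 59 above 1%. The most abundant members had means of 0.789%, 0.462% and 0.876% in the 3 mice, and 21 of 112, 27 of 88 and 21 of 59 barcodes with T cells lay above them. These values chose the members and are a description. Presence in T cells at 0.01% was found in 28.0% of the 1064 barcodes, compared with 63.1% in B cells, 39.0% in monocytes and 32.0% in neutrophils.

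Together the members held a substantial part of the B cell reads and little of the myeloid reads. Their summed share in B cells was 15.9% in mouse 1, 14.5% in mouse 2 and 16.0% in mouse 3, or 15.4% ± 0.854 (SD, n = 3 mice). It varied more in monocytes, with 6.33%, 3.23% and 3.11% (4.22% ± 1.82, SD, n = 3), and in neutrophils, with 5.50%, 2.65% and 3.15% (3.77% ± 1.52, SD, n = 3). With T cells under 0.001% the mean sum was 4.36% in B cells and 0.513% over monocytes and neutrophils, the latter 3.99% with the rule as given, and with both myeloid populations required it was 5.96% in B cells. In T cells all members of a mouse summed to 0.225%, 0.113% and 0.109%. The barcodes with B cells, myeloid cells and T cells, 259 in all, held 68.9% ± 3.24 of B cell and 92.3% ± 1.80 of monocyte reads, and the 218 barcodes of B cells without other blood held 7.74% ± 2.01 of B cell reads (SD, n = 3 each).

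Lineage balance was measured as the log2 ratio of the B cell share over the mean of the monocyte and neutrophil shares, with 0.01% added to each. Its median over the members was 3.09 ± 0.24 on the log2 scale (SD over the medians of 3 mice), so that most members were higher in B cells. A limit of 4-fold placed 122 members (72.2%) as B-rich, 12 (7.10%) as myeloid-rich and 35 (20.7%) in between. Over all 1064 barcodes 34.2% were B-rich, 6.58% myeloid-rich and 59.2% in between, but the rule itself asked for B cells, so nothing can be read from this difference. In mice 1, 2 and 3 there were 51, 25 and 46 B-rich and 6, 4 and 2 myeloid-rich members.

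The B-rich members had high B cell levels and a trace of myeloid reads. Their B cell shares ran from 0.0661% to 1.499% with a median of 0.306%, while the monocyte median was 0.0138% and the highest monocyte share 0.0741%. MyB-2a, the leading member of mouse 2 and its most B-rich one, held 1.35% of B cell and 0.0300% of neutrophil reads but 0.000445% of monocyte reads. MyB-2b held 1.13% of B cell, 0.0341% of monocyte and 0.0290% of neutrophil reads, and MyB-2c held 1.13%, 0.0178% and 0.00517%. In mouse 3 MyB-3c was the highest member in B cells, with 1.499% there, 0.0735% in monocytes and 0.0225% in neutrophils, and MyB-3d, its most B-rich member, held 0.700% of B cell, 0.0176% of neutrophil and 0.000127% of monocyte reads. MyB-1d of mouse 1 had 0.689%, 0.0124% and 0.00849% in B cells, monocytes and neutrophils. All of these were B cell barcodes whose myeloid share was many-fold lower and, in several, lay near the presence limit.

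The 12 myeloid-rich members showed the opposite balance at higher myeloid levels. Their monocyte shares ran from 0.121% to 1.18% (median 0.616%), their neutrophil shares from 0.107% to 1.29% (median 0.521%) and their B cell shares from 0.0106% to 0.208% (median 0.0223%). MyB-1a held 0.993% of monocyte, 1.29% of neutrophil and 0.0803% of B cell reads. MyB-1b had 0.861%, 0.949% and 0.108%, and MyB-1c had 0.763%, 0.670% and 0.0243% in the same order. MyB-1e, the most myeloid-rich of mouse 1, held 0.585%, 0.625% and 0.0189%. In mouse 2 the most myeloid-rich was MyB-2d, with 0.425% of monocyte, 0.316% of neutrophil and 0.0148% of B cell reads. Mouse 3 had only MyB-3a, with 1.18%, 1.24% and 0.208%, and MyB-3b, with 0.668%, 1.02% and 0.0106%. In each of these members the monocyte and neutrophil shares were close, and both exceeded the B cell share.

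Myeloid presence often rested on a single population. At 0.01%, 59 members were in monocytes and neutrophils, 79 in monocytes only and 31 in neutrophils only. All 12 myeloid-rich members were in both, but of the 145 members with a mean myeloid share under 0.05% only 35 were. Among the 110 barcodes with T cells and the same mean myeloid share under 0.05%, 67 were in both. With 0.01% added, 162 of the 169 members (95.9%) were within 4-fold between monocytes and neutrophils, against 97.9% of the 1064 barcodes, since a trace near the limit differs little from 0 on that scale. The other 7 were higher in monocytes (4.14%, background 1.88%) and 0 in neutrophils (background 0.188%). Across members the Spearman correlation of monocyte and neutrophil shares was 0.257, 0.469 and 0.0774 in the 3 mice, and 0.789, 0.888 and 0.963 across the barcodes with T cells. Pearson's r of the members' log2 shares, with 0.01% added, was higher, at 0.828, 0.785 and 0.731. The mean of the mouse medians in monocytes was 0.0173% for members and 0.109% for the barcodes with T cells. Whether the level or range of myeloid shares bears on these correlations was not tested. Correlations across barcodes of 1 sample pair are descriptions only.

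Macrophages were then compared. The 0.1% clause of the rule could be met in a macrophage sample, so tests used the 137 members that reached 0.1% in B cells, monocytes or neutrophils, 56, 32 and 49 in the 3 mice, whose choice used no macrophage value. These members took a larger share of cardiac than of renal macrophage reads. In Ccr2lo macrophages they summed to 7.22%, 4.30% and 8.25% in mice 1, 2 and 3, and in Ccr2hi macrophages to 6.89%, 3.78% and 6.87%. Their sums in renal M2 macrophages were 5.77%, 3.27% and 4.95%, and in renal M1 macrophages 3.54%, 3.003% and 1.83%. The order was the same in each mouse, with Ccr2lo highest, then Ccr2hi, then M2 and M1 lowest, although the ranges of the subsets overlapped between mice. This order turned under other rules: with presence at 0.02% M1 was lowest in 1 of 3 mice and its mean sum, 5.11%, was the highest of the 4, and with monocytes and neutrophils both required M1 was also lowest in 1 of 3 mice, its mean of 2.66% lying above the 1.95% of M2. The mean sums were 6.59% ± 2.05 in Ccr2lo, 5.84% ± 1.79 in Ccr2hi, 4.66% ± 1.28 in M2 and 2.79% ± 0.878 in M1 macrophages (SD, n = 3 each).

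The 4 subsets accounted for a share (eta squared) of 0.595 of the variance of the log2 sums. Permuting the subset labels over all 12 macrophage samples, this missed the threshold of 0.05 on the adjusted p (exact permutation p = 0.0545, Benjamini-Hochberg adjusted p = 0.272 over 5 tests). With the mouse as a replicate block, permuting only within mice, the subsets took 0.744 of the variance left after the mouse means, and the difference passed (exact permutation p = 0.00174, the smallest that these permutations can give, adjusted p = 0.00868). The call without the block appeared when mouse 2 was left out (eta squared 0.862, exact permutation p = 0.00952, adjusted p = 0.0476). The result depended on the presence limit, with eta squared 0.848 at 0.005% (exact permutation p = 0.00383) and 0.0585 at 0.02% (exact permutation p = 0.917), and it was 0.154 with both myeloid populations required (exact permutation p = 0.734). With T cells under 0.001%, which 60 members met, all members summed to 0.265% of M1 reads against 2.85% with the rule as given.

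Among Ccr2hi, Ccr2lo and M2 macrophages alone the difference did not pass, with eta squared 0.212 (exact permutation p = 0.468, adjusted p = 0.468) and, within mice, 0.876 (exact permutation p = 0.0278, the smallest possible, adjusted p = 0.0694). Summed over these members, Ccr2hi lay below Ccr2lo in 3 of 3 mice, with a log2 ratio of -0.17 ± 0.10, and M2 lay below the cardiac mean in 3 of 3 mice, with a log2 ratio of -0.40 ± 0.18 (SD over 3 mice). Exact sign-flip permutation tests, two-sided, gave p = 0.25 for each (adjusted p = 0.312), which is the smallest value 3 mice allow. Each barcode was a member in 1 mouse only, with 1 sample per population, and single barcodes were given no test.

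Compared with barcodes of B cells, myeloid cells and T cells, chosen on blood in the same way, the members were lower in renal M1 macrophages relative to the other subsets in 3 of 3 mice. The mean sum in Ccr2hi, Ccr2lo and M2 macrophages was 1.87, 1.26 and 3.66 times that in M1 macrophages for the members of mice 1, 2 and 3, but 0.326, 0.476 and 0.357 times for the 202 barcodes with T cells. Values of the groups did not overlap. The log2 difference was 2.43 ± 0.98 (SD, n = 3, with 2.52, 1.40 and 3.36 in the mice, exact sign-flip permutation p = 0.25, the smallest possible, adjusted p = 0.312). In the 92 blood-chosen barcodes of B cells without other blood the ratio was 30.5, 40.5 and 31.8. All 460 blood-chosen barcodes held on average 48.7% of Ccr2hi, 42.2% of Ccr2lo, 43.9% of M2 and 96.9% of M1 reads. Blood-chosen members held 4.01% of monocyte and 14.9% of B cell reads, and the barcodes with T cells 91.8% and 67.9%. The classes were chosen on blood shares, and whether the M1 difference goes beyond their blood difference was not tested.

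M1 macrophages held the members that were myeloid-rich. Of the 169 members 53 (31.4%) reached 0.01% in M1 macrophages, close to the 30.6% of the 1064 barcodes. All 12 myeloid-rich members did, as did 13 of the 35 in between and 28 of the 122 B-rich ones. The 12 myeloid-rich members had M1 shares from 0.0816% to 0.838% with a median of 0.427%, whereas the B-rich members had a median of 0.000312% and at most 0.0451%. MyB-3a had 0.838% and MyB-3b 0.572% of M1 reads, near but under their monocyte shares. MyB-1b had 0.705%, MyB-1a 0.597% and MyB-1c 0.556% of M1 reads, MyB-2d had 0.577%, and MyB-1e stood lower at 0.152%. MyB-1d, MyB-2a and MyB-2e, B-rich members with low myeloid shares, had 0.000180%, 0.000489% and 0.000178% of M1 reads. Each lay under the barcode's highest share in a sample of another mouse (0.000354%, 0.00188% and 0.000790%).

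Presence in M1 macrophages was more frequent at higher myeloid levels. Of members with a mean myeloid share under 0.05%, 30 of 145 were in M1 macrophages at 0.01%. From 0.05% to 0.1% it was 1 of 2, from 0.1% to 0.5% 15 of 15, and above 0.5% 7 of 7. Barcodes with T cells showed the same rise, with 38 of 110 under 0.05% and 26 of 36 from 0.05% to 0.1%. They were 43 of 43 from 0.1% to 0.5% and 70 of 70 above. With 0.01% added, 168 of 169 members (99.4%) lay within 4-fold of their mean myeloid share in M1 macrophages, against 97.3% of the 1064 barcodes, 1 lay lower (0.592%, background 2.26%) and 0 higher (background 0.47%). The median log2 ratio of M1 over myeloid share was -0.72 in members and -0.0035 over all. Pearson's r between log2 shares in M1 macrophages and monocytes, with 0.01% added, was 0.847, 0.906 and 0.764 across the members of the 3 mice. Spearman's rho, which ranks the shares without the addition, was 0.400, 0.798 and 0.176. In mouse 1, 33 of 69 members had under 0.001% of M1 reads. With 0.01% added, such trace shares take nearly the same value in r, whereas rho ranks them apart. How far this makes up the gap between r and rho was not tested.

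Cardiac and M2 macrophages held nearly all members. Over all 169 members, the median levels of B-rich, myeloid-rich and intermediate members there were within 2-fold of each other. In Ccr2lo and M2 macrophages this did not hold for the members chosen on blood. At 0.01%, Ccr2hi macrophages contained 157 members (92.9%, background 95.2%), Ccr2lo macrophages 160 (94.7%, background 95.6%) and M2 macrophages 163 (96.4%, background 95.9%), the background being the 1064 barcodes. All 3 of these subsets but not M1 held 105 members (62.1%, background 62.8%), all 4 subsets held 47 (27.8%, background 28.7%), and 2 members, of mouse 1, were in none (1.18%, background 1.13%). In 6 members M1 was combined with a lack of 1 or more of the other subsets (3.55%, background 1.97%). Median shares in Ccr2lo macrophages were 0.110% in B-rich, 0.0748% in myeloid-rich and 0.109% in intermediate members. The medians in Ccr2hi macrophages were 0.101%, 0.0906% and 0.133%, and in M2 macrophages 0.0724%, 0.113% and 0.0805%. Of the 35 intermediate members only 12 reached 0.1% in blood, so the rule bears on these medians. Among blood-chosen members the mean of the mouse medians in Ccr2lo was 0.103% in B-rich, 0.0735% in myeloid-rich and 0.0413% in intermediate members. In M2 it was 0.0734%, 0.106% and 0.0411%. A mean of 61.1% of these intermediate members were in Ccr2lo at 0.01%. Of the 32 members that reached 0.1% only in a macrophage population, all were in these 3 subsets at 0.01%, which the rule makes likely.

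Within the heart most members had similar levels in both subsets. With 0.01% added to each share, Ccr2hi and Ccr2lo were within 4-fold in 168 of 169 members (99.4%, background 99.2%). On that scale none was over 4-fold higher in Ccr2hi (background 0.282%) and 1 was over 4-fold lower (0.592%, background 0.47%). Shares without the addition could differ more where they were low. For example, a member of mouse 3 had 9.19e-05% of Ccr2hi and 0.0247% of Ccr2lo reads. Their Spearman correlation was 0.852, 0.852 and 0.918 in the 3 mice. M2 and Ccr2lo shares, with 0.01% added, were within 4-fold in 167 members (98.8%, background 92.7%), with correlations of 0.711, 0.738 and 0.880. On that scale the other 2 were lower in M2 (1.18%, background 4.04%), and 0 were higher (background 3.29%). Without the addition some were higher in M2, such as a member of mouse 1 with 0.0245% of M2 and 0.000138% of Ccr2lo reads. With 0.01% added, M2 exceeded M1 shares over 4-fold in 104 members (61.5%, background 67.6%), 83 of them B-rich. M2 lay over 4-fold below M1 in 11 (6.51%, background 5.08%), of which 5 were myeloid-rich and 6 in between.

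Ranks in blood and in cardiac macrophages were weakly related across members. Spearman's rho of Ccr2lo with B cell shares was 0.139, 0.278 and -0.121 across members of the 3 mice, and with monocyte shares 0.126, -0.246 and -0.161. Across barcodes with T cells rho of Ccr2lo with B cells was 0.584, 0.495 and 0.706, and with monocytes 0.394, 0.585 and 0.180. Whether the range of shares in each class bears on this was not tested. Ccr2lo shares were within 4-fold of B cell shares in 102 members (60.4%, background 44.9%), over 4-fold lower in 50 (29.6%, background 12.7%) and over 4-fold higher in 17 (10.1%, background 42.4%). The rule's requirement of B cells bears on these counts, as does the 0.1% clause, which a macrophage sample could meet alone. For Ccr2hi against B cells 16 members were over 4-fold higher (9.47%, background 39.9%) and 45 lower (26.6%, background 11.5%), and for M2 against B cells 14 were higher (8.28%, background 39.2%) and 61 lower (36.1%, background 14.8%).

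The members leading in blood were found in all of the heart and M2 samples. MyB-1a had 0.149% of Ccr2hi, 0.0845% of Ccr2lo and 0.205% of M2 reads, MyB-1b had 0.0699%, 0.0552% and 0.0992%, and MyB-1c had 0.119%, 0.0561% and 0.104%. MyB-3a had 0.0687%, 0.0781% and 0.147% in the same order, so that these myeloid-rich members were several-fold lower in the heart than in monocytes. Among B-rich members, MyB-2a had 0.254% of Ccr2hi, 0.330% of Ccr2lo and 0.0861% of M2 reads. MyB-2b had 0.106%, 0.115% and 0.0567%, MyB-2c had 0.149%, 0.194% and 0.137%, and MyB-1d had 0.0505%, 0.0324% and 0.0235%. Each of the latter was lower in these subsets than in B cells.

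With 0.01% added to each share, the members over 4-fold higher in Ccr2lo macrophages than in B cells were 5, 4 and 8 in mice 1, 2 and 3. The examples named here are of mouse 3. These counts cover all members, and the 0.1% clause could be met in a macrophage sample alone, as MyB-3e did. High macrophage shares of such members follow in part from the rule, and the counts are a description. MyB-3e held 1.64% of Ccr2hi and 1.46% of Ccr2lo reads but 0.0907% of B cell, 0.0120% of monocyte and 0.0135% of neutrophil reads, with 0.373% in M2 and 0.0327% in M1 macrophages. MyB-3f had 0.973% of Ccr2hi, 0.907% of Ccr2lo and 0.365% of M2 reads against 0.217% of B cell and 0.0171% of monocyte reads. MyB-3c was high in B cells as well as in heart, with 0.758% of Ccr2hi, 1.26% of Ccr2lo, 0.310% of M2 and 0.0282% of M1 reads. By contrast MyB-3b, high in blood myeloid cells, had 0.0130% of Ccr2hi, 0.0318% of Ccr2lo and 0.0507% of M2 reads. Counting for each member the population with its highest share, 95 members peaked in B cells. Macrophage peaks were 22 in Ccr2lo (13.0%, background 21.4%), 19 in Ccr2hi (11.2%, background 13.8%), 11 in M2 (6.51%, background 22.4%) and 7 in M1 (4.14%, background 3.20%). Another 9 peaked in monocytes (5.33%, background 2.35%) and 6 in neutrophils (3.55%, background 3.95%). The 95 are 56.2% of members, against 21.4% of the 1064 barcodes, which are the background, and 20.1% of the barcodes with T cells. The rule requires B cells and limits T cells, so nothing is read from these counts.

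Some members recurred in another mouse, and the labels do not say whether the 3 recipients received cells of the same infected culture. At 0.01% this was 21 of 169 (12.4%), 7, 2 and 12 in the 3 mice, against 16.3% of the 1064 barcodes. Without these, an alternative added after the data were seen, 148 members were left, whose mean sums were 7.78% in Ccr2lo, 7.20% in Ccr2hi, 5.52% in M2 and 2.44% in M1 macrophages. Eta squared for those chosen on blood was then 0.599 (exact permutation p = 0.0344, adjusted p = 0.172).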

How the data were processed

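Per the labels' protocols, barcodes were amplified from genomic DNA in 18 PCR cycles and indexed in 9 to 11 more. The authors deposited, for each of the 24 samples, whole-number read counts per distinct sequence of 52 bases, not normalised. Trimming, filtering and counting are not given in the sources used here. Shares are counts over the sample's total, in percent. Populations and mice come from the titles, and the same mouse number was taken as the same animal. Mean overlap (sum of the smaller shares) was 0.410 within and 0.0136 between mice, and no samples agreed within sampling noise (smallest chi-square per degree of freedom 83.4 over 276 pairs). Separate hosts make mice the replicates. The 5 tests were exact permutation or sign-flip tests, adjusted by the Benjamini-Hochberg method with adjusted p under 0.05 as the threshold, and were checked on simulated data (Python 3.11.15, numpy 2.4.6, scipy 1.17.1, pandas 2.3.3). Named barcodes were, per mouse, the 3 members highest in blood, the extremes of lineage balance, the member highest in any macrophage subset and the barcodes next to the T cell limit. The most alike pair was added after values were seen. Members and lists were chosen with earlier results of these data known. Alternatives covered limits, depth, merging, filters, mice and the block. Count models were not used, since each barcode was a member in 1 mouse only, with 1 sample per population.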

Additional observations from a re-analysis of the deposited data

Results flagged for a closer look

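Ccr2hi and Ccr2lo macrophages ranked in opposite order for members and for barcodes with T cells, each chosen on blood and summed per sample. The log2 ratio of Ccr2hi over Ccr2lo was -0.17 on average for the members, with -0.07, -0.19 and -0.26 in mice 1, 2 and 3. For the barcodes with T cells it was 0.31, with 0.24, 0.27 and 0.41. It was -0.19 for the barcodes of B cells without other blood, with -0.24, -0.20 and -0.12. Over all barcodes chosen on blood it was 0.20, with 0.16, 0.20 and 0.25, the same sign as for the barcodes with T cells. Each mouse thus lay on opposite sides of 0 for members and for barcodes with T cells, and the difference between these classes was not tested.

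A member of mouse 3 was abundant in a mouse to which the choice of members did not refer. The barcode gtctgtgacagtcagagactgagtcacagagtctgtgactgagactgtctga held 0.237% of B cell reads in mouse 3 and 1.37% of T cell reads in mouse 1, where 7 of 8 populations had it at 0.01% or more. The next highest share of a member in another mouse was 0.168%.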

How the results depend on the processing

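Of 276 values recomputed under 19 alternatives, 235 were counted as unchanged, and no signed value reversed. For tests this meant the same direction and side of the threshold, and for sums and medians a move of less than 1 SD. Numbers of members from 119 to 203 were also counted as unchanged. The sign-flip tests cannot pass the threshold with 3 mice, so only a change of sign could count for them. The order of the macrophage subsets, which eta squared does not show, did turn: M1 was lowest in 1 of 3 mice with presence at 0.02% and with both myeloid populations required, and in 3 of 3 with the other limits tried (presence at 0.005%, T cells under 0.001%, and 0.05% or 0.2% in place of 0.1%). The number of members, 169, was 94 with presence at 0.02%, 60 with T cells under 0.001%, 59 when monocytes and neutrophils were both required, and 100 to 128 without 1 mouse. Eta squared of the 4 macrophage subsets was 0.848 with presence at 0.005% (adjusted exact permutation p = 0.0192), 0.744 with the replicate block, 0.0585 with presence at 0.02%, 0.154 with both myeloid populations, and 0.405 to 0.862 without 1 mouse. The block changed no other call. With presence at 0.02%, T cells under 0.001% and both myeloid populations, in this order, the summed shares of members were 4.58%, 2.29% and 3.14% in Ccr2hi (8.62% with the rule as given), 4.94%, 2.61% and 3.20% in Ccr2lo (9.30%), and 3.93%, 1.97% and 2.13% in M2 macrophages (6.42%). In M1 macrophages (2.85%) they were 5.12%, 0.265% and 2.67%, in B cells (15.4%) 10.5%, 4.36% and 5.96%, and over monocytes and neutrophils (3.99%) 5.66%, 0.513% and 3.56%. With presence at 0.005% the sums were 1.73% in M1 and 7.56% in M2, and with 0.1% reached in blood M2 had 4.66%. The median log2 ratio of B over myeloid shares, 3.09, was 2.83 with presence at 0.02%, 2.83 with 0.05% in place of 0.1%, 3.78 with 0.2%, 3.58 with 0.1% reached in blood and 1.68 with both myeloid populations. The presence limit applied to T cells as well, so that raising it also admitted barcodes with more T cell reads, while fewer passed in B cells or myeloid cells. Thinning to 6808221 reads, merging, removing barcodes under 10 reads or 100-fold higher in another mouse, and the alternating pattern changed no call. They moved none of these sums or medians by 1 SD, except the B cell sum, which was 13.9% with the alternating pattern only. That pattern left 156 members. Shares near 0.01% rest on 681 or more reads, but on unknown numbers of cells.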

Other observations

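Some members of a mouse resembled each other in several populations. Of 4877 pairs of members of the same mouse, 14 (0.287%) lay within 1.5-fold in the 7 populations other than T cells, with 0.01% added, 2 in mouse 1, 3 in mouse 2 and 9 in mouse 3. Over all 1064 barcodes it was 1062 of 191413 pairs (0.555%), and over the barcodes with B cells, myeloid cells and T cells 15 of 11755 (0.128%). The share among members lay between these. The most alike pair was chosen after its values were seen, and its sequences differ at 30 of 52 bases.
MyB-2f: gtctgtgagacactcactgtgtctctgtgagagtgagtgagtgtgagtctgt
MyB-2g: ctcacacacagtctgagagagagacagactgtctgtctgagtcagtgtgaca
MyB-2f held 0.360% of monocyte, 0.492% of neutrophil, 0.140% of B cell, 0.149% of Ccr2hi, 0.0896% of Ccr2lo, 0.566% of M1 and 0.0322% of M2 reads. MyB-2g held 0.378%, 0.456%, 0.122%, 0.147%, 0.105%, 0.533% and 0.0319% in the same order. MyB-2f also held 0.105% of B cell reads in mouse 3. None of the 7 populations set them more than 1.16-fold apart on that scale. In T cells they had 0.00570% and 0.00337%.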
